A study of Mus musculus with 10 samples.

Results

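Lipid droplet and fatty acid enzymes were followed in the secondary palate of mouse embryos, as the 42 genes of a list that covers fatty acid synthesis, storage in droplets, lipolysis and oxidation. Of these, 39 had a probe set whose platform annotation gives that gene alone, out of 18194 such genes in all, and a gene with several was represented by the brightest on average over 10 arrays. Acsl1, Plin1 and Cpt1b had no such probe set and were not analysed here. The mutant group (genotype Tgfbr2fl/fl;Wnt1-Cre, 5 arrays) carries floxed alleles of the TGF-beta type II receptor gene together with Wnt1-Cre, a recombinase driven by a promoter active in the neural crest. The control group (genotype Tgfbr2fl/fl, 5 arrays, called wildtype in the titles) carries the same floxed alleles with no Cre in its label. Both groups have the strain label C57B6 and were collected at embryonic stage E14.5, when the palatal shelves fuse. RNA of the whole secondary palate was hybridised, and the values are log2 expression on an Affymetrix array.

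Cells make fatty acids from acetyl-CoA, lengthen and desaturate them, join them to glycerol and keep the product, triglyceride, in droplets coated with perilipins. Lipases free the fatty acids again, and carnitine palmitoyltransferases carry them into mitochondria for beta-oxidation. The transcription factor SREBP-1, encoded by Srebf1, drives synthesis genes, and the PPAR receptors drive genes of storage and oxidation. Lipid handling has been studied in this genotype because palate mesenchyme without Tgfbr2 has been described as accumulating lipid droplets, and the comparison of mutant with control arrays asks which of the transcripts of these steps differ.

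One array, control replicate 1, differed most from the rest. On the second principal component it was at 30.9, with the other 9 between -15.0 and 6.66, and its correlation with them was 0.985 to 0.989, against 0.989 to 0.996 among the other 9. The Y-linked gene Eif2s3y was between 9.0 and 9.3 in 4 mutant arrays and 2 control arrays and between 3.2 and 5.1 in the others, so the groups were not balanced for it. The labels do not say that each sample is a separate embryo, and p-values measure only the spread between these samples. Tgfbr2 averaged 10.74 ± 0.05 in the mutants and 10.66 ± 0.11 in the controls (log2, SD, n = 5 each). These values do not check the deletion, since the position of the Tgfbr2 probe sets in the gene is unknown here. Of 8 palate mesenchyme markers, 1 was called, Tbx22, which was 1.54-fold higher in the mutants. Msx1 changed most of the 8, by -0.84 on the log2 scale (mutant minus control), and was not called. Summed linear signal is 2 to the power of each log2 value, added over the markers. For these 8 it was 13150 to 15017 in mutant and 11944 to 14763 in control arrays, so the labelled tissue was represented in both groups. Skeletal muscle markers were lower, with 9 of 12 called and a summed linear signal of 713 to 4313 in mutant and 3843 to 13275 in control arrays. In bulk tissue, fewer cells of a type and less RNA per cell cannot be told apart.

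The bases upstream of 4 genes are shown for reference: Fasn, the synthase itself, Fads2, a synthesis gene among those with the most negative log2 fold change, Lipa, the member with the smallest p, and Insig1, a regulator outside the list that was called lower. The sequences are from RefSeq (GRCm38.p6), each the 250 bases just before the gene's annotated start, written 5′ to 3′ on the gene's strand. Capitals mark the letters CCAAT, read on either strand (the box bound by NF-Y, a partner of SREBP), and the E-box CACGTG.
Fasn, chr11:120824548-120824797, minus strand: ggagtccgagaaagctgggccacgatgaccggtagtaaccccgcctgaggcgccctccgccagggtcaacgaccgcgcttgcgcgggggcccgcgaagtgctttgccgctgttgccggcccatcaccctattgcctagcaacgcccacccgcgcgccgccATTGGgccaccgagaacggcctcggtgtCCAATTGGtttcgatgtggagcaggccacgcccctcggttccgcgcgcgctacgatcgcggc
Fads2, chr19:10101504-10101753, minus strand: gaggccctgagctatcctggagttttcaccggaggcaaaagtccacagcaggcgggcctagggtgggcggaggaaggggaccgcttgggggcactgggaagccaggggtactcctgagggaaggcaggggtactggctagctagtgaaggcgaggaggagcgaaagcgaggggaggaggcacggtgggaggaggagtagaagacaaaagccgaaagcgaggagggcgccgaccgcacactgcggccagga
Lipa, chr19:34527475-34527724, minus strand: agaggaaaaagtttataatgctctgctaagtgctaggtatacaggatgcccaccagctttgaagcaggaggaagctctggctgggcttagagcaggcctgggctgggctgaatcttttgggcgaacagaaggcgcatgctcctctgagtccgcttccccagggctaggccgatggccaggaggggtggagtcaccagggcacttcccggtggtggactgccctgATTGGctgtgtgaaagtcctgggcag
Insig1, chr5:28071162-28071411, plus strand: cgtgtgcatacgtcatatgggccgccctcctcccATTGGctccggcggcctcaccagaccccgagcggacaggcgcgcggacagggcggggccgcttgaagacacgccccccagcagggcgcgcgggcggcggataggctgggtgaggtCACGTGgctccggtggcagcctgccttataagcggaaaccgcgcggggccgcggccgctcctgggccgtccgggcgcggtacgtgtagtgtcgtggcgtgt
The Fasn window holds 3 CCAAT matches, of which a pair overlaps, those of Lipa and Insig1 hold 1 each, and that of Fads2 holds none. The table has a window for 32 of the 39 genes, and 13 of the 32 (40.6%) hold CCAAT, against 37.5% of all 27025 genes in the table. CACGTG is in 3 of the 32 (9.38%), against 6.86% of all genes. The sterol element core TCACNCCAC, read on both strands, is in 0 of the 32 and in 1.22% of all genes. These matches describe letters and show no binding.

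No lipid gene of the list was called. By limma, 0 of the 39 passed an adjusted p of 0.05 over all genes, where 8.26% of all 18194 genes did, and the smallest adjusted p was 0.0603. At an unadjusted p under 0.05 there were 9 of the 39 (23.1%), against 25.2% of all genes, which is close to the background. With arrays centred on their medians there were 14 of the 39, against 29.3% of all genes, and with quantile normalization again 8, against 22.8% of all genes. Those 9 were Fasn, Scd1, Fads1, Fads2, Acsl3, Dgat1 and Mgll with a negative and Pparg and Lipa with a positive log2 fold change (mutant minus control). The mutant and control arrays overlapped for all 39, while they did not overlap for 6.75% of all genes. Log2 fold changes ran from -0.28 to 0.26, with a median of 0, and the median over all genes was also 0. Of the 1503 genes called in all, 35.1% were higher and 64.9% lower. With each array centred on its median, which moved the median of all genes by 0.08, 73.0% of called genes were higher and 27.0% lower. Medians over genes were 7.4 in mutant and 7.4 or 7.5 in control arrays. Centring thus shifted arrays relative to each other by 0.1, the rounding step of the values. With quantile normalization again, 57.0% of called genes were lower. All 39 of the 95% confidence intervals lay within a 1.5-fold change in either direction, a log2 change of 0.585, as did 16558 of all 18194. The outermost bounds of the 39 were -0.54 and 0.51. The intervals of 14 of the 39 also excluded a 1.2-fold change, as did those of 7108 of all 18194 genes. Without control replicate 1, again 0 of the 39 were called, with a smallest limma adjusted p of 0.0808. There 12 of the 39 had an unadjusted p under 0.05, against 26.9% of all genes.

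**Figure D1:**
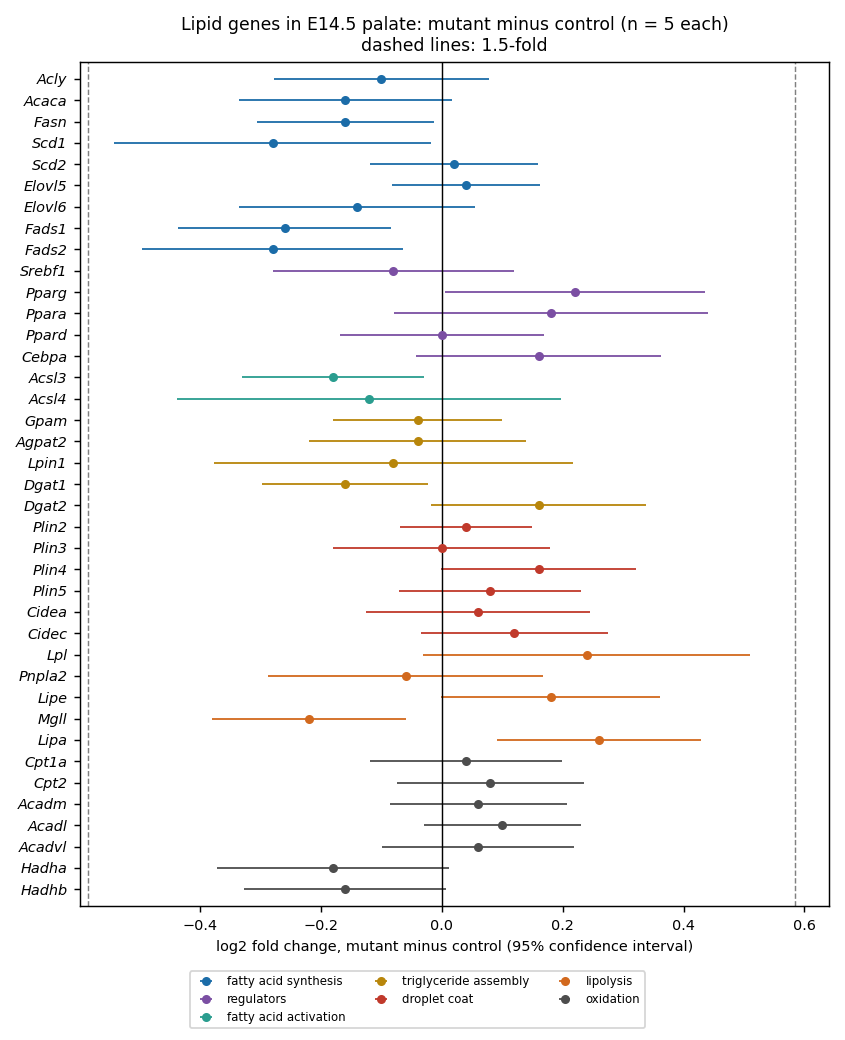
Log2 fold change (mutant minus control, horizontal axis) of each of the 39 lipid genes (vertical axis, coloured by step) with its 95% confidence interval from limma, 5 arrays per group. Every interval lies between the dashed lines at 1.5-fold, and the synthesis genes from Acly to Fads2 lie between -0.28 and 0.04.

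Fatty acid synthesis held 9 genes, 7 with a negative and 2 with a positive log2 fold change (median -0.16), and none was called. With each array centred on its median or with quantile normalization again, 7 of 9 were likewise negative, with medians of -0.08 and -0.10. At an unadjusted p under 0.05 there were 4 of 9, all negative, where 15.1% of all genes were negative at that level, but 0 of 9 with centring and 1 of 9 with quantile normalization again. Fads1, the delta-5 desaturase of polyunsaturated fatty acids, stood at 9.6, 9.8, 9.5, 9.5 and 9.8 in mutant and 9.9, 9.8, 10, 10 and 9.8 in control arrays. Its 3 lowest arrays were mutants, and the groups met at 9.8 (log2 fold change -0.26, SE 0.08, limma adjusted p = 0.0706). Fads2, the delta-6 desaturase, stood at 8.4, 8.3, 8.0, 8.4 and 8.4 in mutant and 8.5, 8.4, 8.7, 8.8 and 8.5 in control arrays. Only the value 8.4 was shared between its groups, and mutant replicate 3 was the lowest array (log2 fold change -0.28, SE 0.10, limma adjusted p = 0.103).

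Scd1, a stearoyl-CoA desaturase that makes monounsaturated fatty acids, stood at 7.8, 7.8, 7.9, 8.1 and 8.0 in mutant and 8.2, 7.8, 8.4, 8.5 and 8.1 in control arrays. Control replicate 2 was as low as the lowest mutants, and the log2 fold change of -0.28 (SE 0.12, limma adjusted p = 0.174) was -0.38 without that array (adjusted p = 0.0429). Fasn, the fatty acid synthase, stood at 10.3, 10.4, 10.3, 10.3 and 10.2 in mutant and 10.4, 10.5, 10.5, 10.6 and 10.3 in control arrays. The Fasn groups overlapped at 10.3 and 10.4, and the log2 fold change was -0.16 (SE 0.07, limma adjusted p = 0.162). Acaca, the acetyl-CoA carboxylase that commits carbon to the pathway, and Acly, which makes its acetyl-CoA from citrate, had log2 fold changes of -0.16 and -0.10. Elovl6, an elongase of saturated fatty acids, was at -0.14, and Elovl5, an elongase of polyunsaturated ones, at 0.04. The other Elovl5 probe set, nearly as bright (mean 10.71, against 10.88), was at -0.06. Scd2, another stearoyl-CoA desaturase, differed by 0.02 (95% confidence interval -0.12 to 0.16). Its values of 12.6 or 12.7 in mutant arrays lay inside the control range of 12.5 to 12.8.

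**Figure D2:**
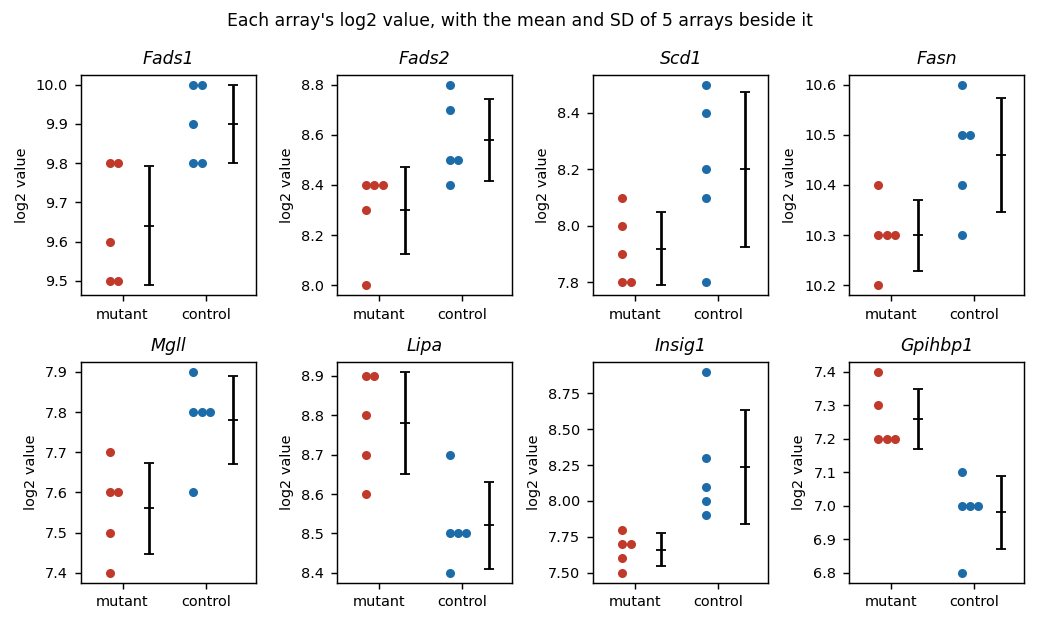
Log2 value (vertical axis) of 8 genes on each of 5 mutant (left, red) and 5 control (right, blue) arrays, with the group mean and SD beside the points. The groups overlap for Fads1, Fads2, Scd1, Fasn, Mgll and Lipa, and are apart for Insig1 (mutants 7.5 to 7.8, controls 7.9 to 8.9) and Gpihbp1 (mutants 7.2 to 7.4, controls 6.8 to 7.1).

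Of 5 transcriptional regulators, none was called, and 1 had an unadjusted p under 0.05 (3 with arrays centred on their medians). The shares of all genes at that level were 25.2% and 29.3%. Srebf1 stood at 9.5, 9.4, 9.5, 9.3 and 9.4 in mutant and 9.8, 9.4, 9.3, 9.6 and 9.4 in control arrays, which differ by -0.08 on the log2 scale (95% confidence interval -0.28 to 0.12, limma adjusted p = 0.630). The mutant values of Srebf1 all lay inside the control range. Pparg, the receptor that drives adipocyte formation, stood at 4.7, 4.9, 5.0, 4.8 and 5.1 in mutant and 4.8, 4.9, 4.5, 4.5 and 4.7 in control arrays. The 2 highest Pparg arrays were mutants and the 2 lowest controls (log2 fold change 0.22, SE 0.10, limma adjusted p = 0.191), at a level below the array medians of 6.4 or 6.5. Cebpa, which acts with Pparg in adipocytes, was at 0.16 (SE 0.09, and 0.105 without mutant replicate 2), and Ppara, the receptor known for inducing oxidation genes in liver, at 0.18 (SE 0.12). Ppard, the broadly expressed PPAR, averaged 6.82 in both groups (SD 0.13 in mutant and 0.11 in control arrays).

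The enzymes that activate fatty acids and build triglyceride were also uncalled. Acsl3, an acyl-CoA synthetase found on droplets, stood at 9.3, 9.4, 9.4, 9.4 and 9.2 in mutant and 9.7, 9.4, 9.5, 9.5 and 9.5 in control arrays. Only 9.4 was shared between its groups, and control replicate 1 was the highest array (log2 fold change -0.18, SE 0.07, limma adjusted p = 0.131). Acsl4, which prefers arachidonic acid, had a log2 fold change of -0.12 (SE 0.15) and was also highest in control replicate 1 (8.2, against 7.3 to 7.8 in the other controls), and its log2 fold change without that array was 0.005. Its 2 dimmer probe sets were at -0.38 and -0.42 (limma adjusted p = 0.150 and 0.0734), and at -0.255 and -0.355 without control replicate 1. Of the 5 genes of triglyceride assembly, 4 had a negative log2 fold change, but 2 with quantile normalization again and 1 with arrays centred on their medians. Gpam, which adds the first fatty acid to glycerol phosphate, and Agpat2, which adds the next, were each at -0.04. Lpin1, a phosphatidate phosphatase, was at -0.08 (SE 0.14), with mutant arrays from 7.0 to 7.7 and control arrays from 7.2 to 7.7. The last step is shared by 2 unrelated enzymes whose values lay on opposite sides of 0. Dgat1 stood at 8.4, 8.4, 8.3, 8.2 and 8.3 in mutant and 8.6, 8.5, 8.5, 8.4 and 8.4 in control arrays (log2 fold change -0.16, SE 0.06, limma adjusted p = 0.141). Dgat2 stood at 8.4, 8.6, 8.4, 8.3 and 8.2 in mutant and 8.4, 8.2, 8.2, 8.2 and 8.1 in control arrays (log2 fold change 0.16, SE 0.08, limma adjusted p = 0.249, with a log2 fold change of 0.105 without mutant replicate 2). Both Dgat genes overlapped between the groups, and the difference between their changes was not tested.

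Genes of the droplet coat had log2 fold changes from 0 to 0.16, and none of the 6 had an unadjusted p under 0.05, against 25.2% of all genes. With arrays centred on their medians that count was 4 of 6, against 29.3% of all genes. All 6 were then positive, with a median of 0.15, where the median of all genes was 0.08. The count was 2 of 6 with the mean of all probe sets or with array weights (24.1% and 28.2% of all genes). Plin2, the perilipin found on droplets of most cell types, was at 10.2 in all 5 mutant arrays and at 10.2, 10.2, 10.2, 10.1 and 10.1 in control arrays. Its log2 fold change was 0.04 (95% confidence interval -0.07 to 0.15, limma adjusted p = 0.662), and the values carry 1 decimal, so this difference is below the step of the table. Plin3, the other widely expressed perilipin, averaged 9.30 in both groups (SD 0.12 in mutant and 0.14 in control arrays). Plin5, known from oxidative tissues, was at 0.08 (SE 0.07) on its brightest probe set. Plin4 and Cidec, known from adipocytes, lay near the low end of the arrays, whose lowest value was 2.2. Plin4 stood at 3.6 to 4.0 in mutant and 3.6 or 3.7 in control arrays, and Cidec at 3.7 to 3.9 in mutant and 3.6 to 3.9 in control arrays. Cidea, a droplet protein known from brown fat, stood at 5.0 to 5.3 in mutant and 4.8 to 5.2 in control arrays. At such levels a change in RNA can be compressed in the log2 values.

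Lipolysis held the member with the smallest p. Lipa, the acid lipase of lysosomes, stood at 8.9, 8.7, 8.6, 8.8 and 8.9 in mutant and 8.4, 8.5, 8.7, 8.5 and 8.5 in control arrays. Control replicate 3 reached into the mutant range, and the log2 fold change was 0.26 (SE 0.08, limma adjusted p = 0.0603). All 3 probe sets of Lipa were on the same side of 0, at 0.24 to 0.32. Lipa passed the threshold in 5 of 20 alternatives, such as without control replicate 3 (0.305, adjusted p = 0.0491) and with quantile normalization again (0.33, adjusted p = 0.0281). Mgll, which cleaves monoglycerides, stood at 7.6, 7.7, 7.6, 7.5 and 7.4 in mutant and 7.9, 7.8, 7.6, 7.8 and 7.8 in control arrays. It had the opposite sign (log2 fold change -0.22, SE 0.07, limma adjusted p = 0.0886), and control replicate 3 was again the array inside the mutant range. Pnpla2, the lipase that starts droplet breakdown, stood at 7.2, 7.1, 7.3, 7.0 and 7.2 in mutant and 7.5, 7.4, 7.0, 7.0 and 7.2 in control arrays, and its mutants lay inside the control range (log2 fold change -0.06, 95% confidence interval -0.29 to 0.17). Lipe, the hormone-sensitive lipase, was at 0.18 (SE 0.08, limma adjusted p = 0.203). Lpl, which frees fatty acids from circulating lipoproteins, stood at 9.3, 9.4, 9.2, 9.7 and 9.5 in mutant and 8.8, 9.2, 9.5, 9.2 and 9.2 in control arrays. Control replicate 1 was the lowest Lpl array (log2 fold change 0.24, SE 0.12, limma adjusted p = 0.255), and without it the log2 fold change was 0.145.

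**Figure D3:**
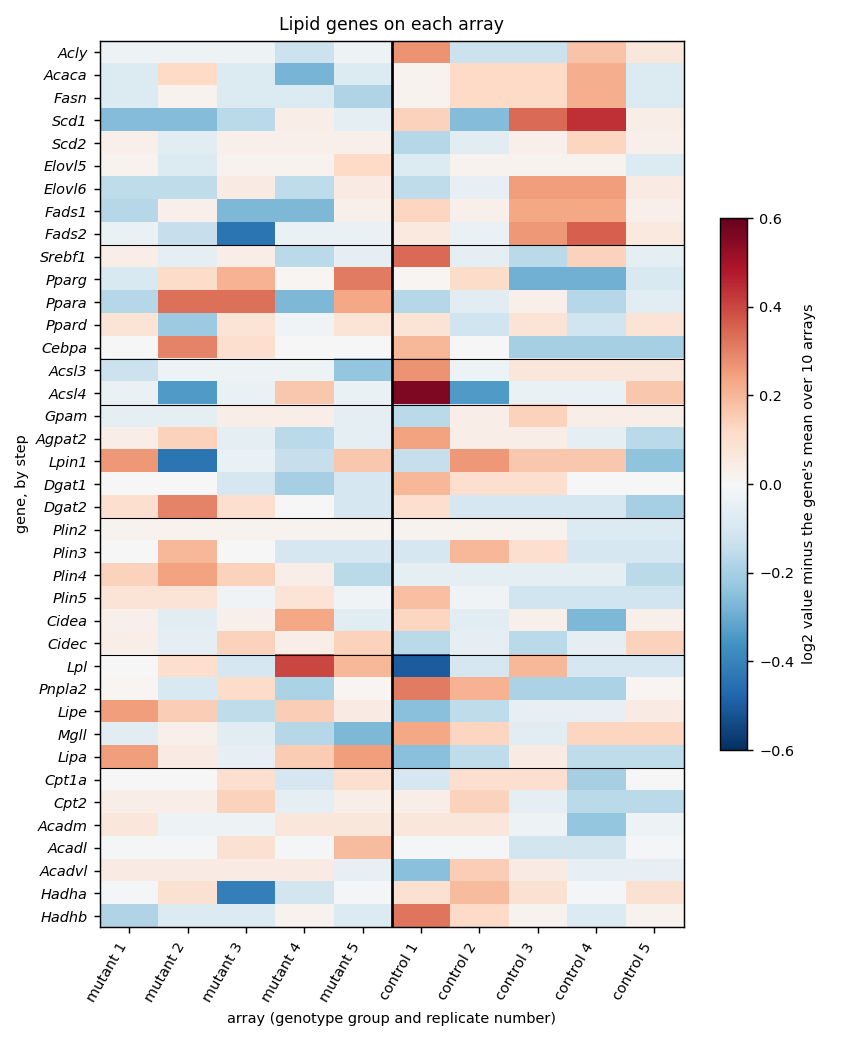
Each gene's log2 value minus its mean over 10 arrays (colour, from -0.6 in blue to 0.6 in red), with 5 mutant arrays left and 5 control arrays right of the black line and genes ordered by step. No row changes colour cleanly at the line, and control replicate 1 holds the lowest value of Lpl (8.8) and the highest of Acsl4 (8.2).

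Genes of mitochondrial oxidation were also uncalled. Of 7 measured, none had an unadjusted p under 0.05, and the log2 fold changes ran from -0.18 to 0.10 (median 0.06). With centring 3 of 7 had such a p, against 29.3% of all genes (median 0.14, against 0.08 over all genes). With quantile normalization again 2 of 7 had, against 22.8% of all genes (median 0.108, against 0.002 over all genes). Cpt1a, which makes the acylcarnitine at the outer membrane, stood at 9.2, 9.2, 9.3, 9.1 and 9.3 in mutant and 9.1, 9.3, 9.3, 9.0 and 9.2 in control arrays, so the mutants lay inside the control range (0.04, 95% confidence interval -0.12 to 0.20). Cpt2, which acts at the inner membrane, was at 0.08 (SE 0.07). The acyl-CoA dehydrogenases for medium, long and very long chains, Acadm, Acadl and Acadvl, were at 0.06, 0.10 and 0.06. Hadha and Hadhb, the subunits of the trifunctional protein that completes the cycle for long chains, were at -0.18 and -0.16 (limma adjusted p = 0.228 and 0.222). Mutant replicate 3 was the lowest Hadha array at 9.6, with the other mutants at 9.9 to 10.1 and controls at 10 to 10.2, and without it the log2 fold change was -0.10. That of Hadhb was likewise -0.10 without control replicate 1. The other 2 probe sets of Hadhb had positive log2 fold changes, 0.18 and 0.26, which were 0.31 and 0.035 without control replicate 1.

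A probe set other than the brightest was called for 3 genes. In a fit of all 34958 probe sets with 1 symbol, 4.91% were called, and of the 80 that belong to the 39 genes 3 were. The second brightest of 6 Acly probe sets (mean 10.81) fell by 0.30 on the log2 scale (SE 0.06, limma adjusted p = 0.0212). The brightest, with a mean of 10.93, carries the suffix that Affymetrix gives to sets whose probes can match other transcripts, and gave -0.10. The third brightest (mean 8.96) was at -0.28 (limma adjusted p = 0.0963), and the dimmer ones (means 2.71 to 4.15) ran from -0.10 to 0.02. The suffix of the brightest Acly probe set is also carried by the brightest of Elovl5 and by the Hadhb probe set at 0.18. The dimmest Acsl3 probe set (mean 6.42) fell by 0.28 (SE 0.06, limma adjusted p = 0.0257), and the other 2 were each at -0.18. A dim Plin5 probe set (mean 4.87) rose by 0.34 (SE 0.07, limma adjusted p = 0.0203), against 0.08 for the brighter one. Of 26 genes with more than 1 probe set, all were on the same side of 0 for 13. The 3 Fads2 probe sets were all negative (-0.16 to -0.42), as were both of Scd1 (-0.28 and -0.32), while the second Fads1 probe set was at 0.04. Those of Cpt1a, Cpt2, Lpl and Lipa were all positive.

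**Figure D4:**
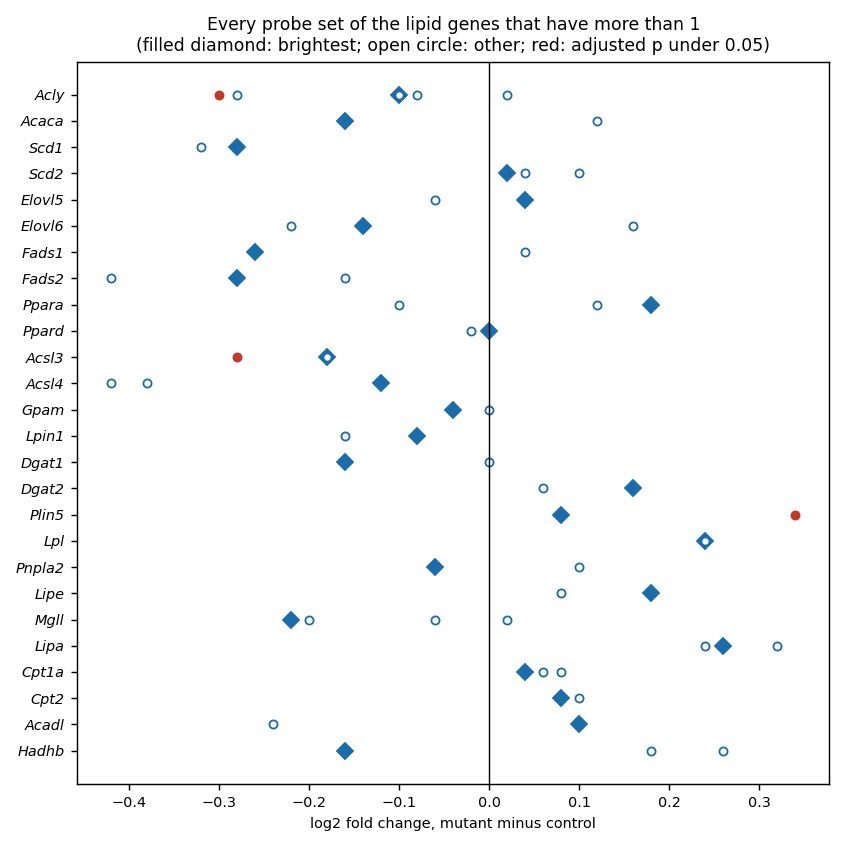
Log2 fold change (mutant minus control, horizontal axis) of every probe set of the 26 lipid genes that have more than 1 (vertical axis), with the brightest as a filled diamond, the others as open circles, and called probe sets in red. The 3 called probe sets belong to Acly (-0.30), Acsl3 (-0.28) and Plin5 (0.34), and none is the brightest of its gene.

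Among 79 other measured genes of the same pathways, 2 were called, 1 lower (5.36% of all genes were) and 1 higher (2.90% of all genes were). At an unadjusted p under 0.05 there were 15 (19.0%), against 25.2% of all genes. Of the 79, 50 (63.3%) had a negative log2 fold change, against 48.6% of all genes. With arrays centred on their medians 30 of the 79 were negative, where the median of all genes was 0.08. None of 19 other synthesis genes, 15 of activation and triglyceride assembly and 16 of oxidation was called. At an unadjusted p under 0.05 there were 2, 4 and 3 of them (10.5%, 26.7% and 18.8%). Insig1, which holds SREBP in the endoplasmic reticulum when sterols are plentiful and is itself an SREBP target, was the 1 called of 13 other regulators. It stood at 7.7, 7.6, 7.5, 7.7 and 7.8 in mutant and 8.9, 8.0, 8.1, 8.3 and 7.9 in control arrays. All mutants lay below all controls, and control replicate 1 was the highest array. Insig1 was 1.49-fold lower (log2 fold change -0.58, SE 0.16, limma adjusted p = 0.0435), and without control replicate 1 its log2 fold change was -0.415 (adjusted p = 0.0182). When each of the 10 arrays was left out in turn, 7 ended this call, namely each mutant replicate and control replicates 3 and 4, with log2 fold changes from -0.665 to -0.415 over all 10. Insig1 was also not called with quantile normalization again, with arrays centred on their medians or with unmoderated variances (adjusted p = 0.0539, 0.0655 and 0.107). Srebf2, Scap and Insig2, which act with it, were at -0.06, -0.12 and -0.06 and were not called.

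Gpihbp1, which carries Lpl to the capillary wall, was the 1 called of 16 other droplet and lipolysis genes. It stood at 7.2, 7.3, 7.2, 7.4 and 7.2 in mutant and 7.0, 7.1, 7.0, 7.0 and 6.8 in control arrays. All mutants lay above all controls, by 0.1 at the nearest, and Gpihbp1 was 1.21-fold higher (log2 fold change 0.28, SE 0.07, limma adjusted p = 0.0310). Of the 10 arrays, 8 ended the call when left out in turn, namely each mutant replicate and control replicates 3, 4 and 5, with log2 fold changes from 0.235 to 0.31 over all 10. With Eif2s3y as a covariate Gpihbp1 was not called either (adjusted p = 0.0946). Gpihbp1 is known from capillary endothelium. Of 6 endothelial markers, 1 (Cldn5) fell, by 0.54, and 5 were not called, and their summed linear signal was 1725 to 1944 in mutant and 1604 to 2139 in control arrays. Their part in the Gpihbp1 result was not tested.

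Other cell types that handle lipid were followed by their markers. The adipocyte genes Adipoq and Lep lay near the low end of the arrays, at 2.9 to 3.2 and 3.5 to 3.9 in mutant and 3.1 to 3.3 and 3.5 to 3.7 in control arrays. Of 6 adipocyte markers, 1 was called: Fabp4, a fatty acid binding protein also found in endothelium, was 2.83-fold lower (brightest probe set), with a mean of 4.86 ± 0.15 in the mutants and 6.36 ± 0.42 in the controls (log2, SD, n = 5 each; limma adjusted p = 0.00104). The summed linear signal of the 6, Fabp4 included, was 157 to 181 in mutant and 190 to 249 in control arrays. Of the 6, 4 had a positive log2 fold change (Retn 0.24, Lep 0.12, Ucp1 0.08 and Cidea 0.06), and Adipoq was at -0.08. The lower sum was thus not a fall shared by the set. None of 7 macrophage markers was called, and their summed linear signal was 1984 to 2418 in mutant and 1780 to 2565 in control arrays. None of 6 epithelial markers was called either (11662 to 15115 in mutant and 9750 to 15761 in control arrays). All 6 had a positive log2 fold change, with Krt8 at 0.56 and Krt18 at 0.48 (limma adjusted p = 0.0638 and 0.0644). The sum of 15761 was control replicate 1, and the other controls lay at 9750 to 11589. Nor was any of 4 erythroid markers called (7984 to 11177 in mutant and 9767 to 15077 in control arrays). Hbb-y made up most of the erythroid sum. Hbb-bh1 was at -1.18 (limma adjusted p = 0.125), with control replicate 1 highest (8.9, against 5.9 to 7.4 in the other controls). Skeletal muscle markers moved as given above. With their median as a covariate, again 0 of the 39 lipid genes were called, and 2 genes in all were. Insig1 and Gpihbp1 lost their calls (limma adjusted p = 0.246 and 0.348). Taken as a deviation from each gene's mean, that median was -1.51 to 0.55 in mutant and 0.435 to 2.16 in control arrays. It thus largely followed genotype, and this fit cannot tell muscle content from genotype.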

How the data were processed

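The deposited values are log2 expression made by the authors with RMA, per the submitters' processing notes (no version is named). They run from 2.2 to 14.3 and carry 1 decimal, and all columns belong to a sample. Of 45101 probe sets, 34958 had 1 gene symbol, 932 several and 9211 none. Symbols were updated through Entrez IDs in a RefSeq table (GRCm38.p6), which held 34754 of the 34958. Differences (mutant minus control) were fitted in R 4.3.3 with limma 3.58.1 (lmFit, eBayes), two-sided, unfiltered, without covariates, with p-values adjusted over all genes by Benjamini-Hochberg. Genes were called at an adjusted p under 0.05. On simulated arrays of this comparison with 18194 genes, the fit called 12 of 50 genes set to differ 1.2-fold, 40 of 50 at 1.5-fold, 48 of 50 at 2-fold, and 6 of 17994 left unchanged. Fewer genes differed in the simulation than the 1503 called in the data. The adjusted p of 0.05 was thus a stricter threshold there, and the recovery of small changes may differ. The members, lists and tests were chosen with earlier results of these data known. All 39 members are named, and of other lipid genes up to 4 called per list. Srebf2, Scap and Insig2 were named after their values were seen, as were marker genes. The number of arrays limits the precision. Alternatives changed probe set summary, filter, variance model, scaling, weights, covariates and samples.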

Additional observations from a re-analysis of the deposited data

Results flagged for a closer look

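In 5 of 84 groups of 5 arrays, 1 array lay far from the other 4 relative to the group's range. For unrounded, normally distributed values chance alone gives about 1 in 20 groups, a rate that does not hold for these rounded values. Fads2 in mutant replicate 3 was 8.0, against 8.3 to 8.4 in the other mutants. In the other 4 groups the whole range was 0.1, the step of the table. They were Acly in mutant replicate 4 (10.8, against 10.9 in the other mutants), Scd2 in mutant replicate 2 (12.6, against 12.7), Acadvl in mutant replicate 5 (9.7, against 9.8), and Plin4 in control replicate 5 (3.6, against 3.7 in the other controls).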

How the results depend on the processing

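Of the 39 lipid genes, 0 were called in the comparison as designed, and 1 was called in each of 6 other settings: Plin5 with the mean of all probe sets, Lipa with the brighter 60% of genes (32 of the 39), with quantile normalization again, with arrays centred on their medians and with Eif2s3y as a covariate, and Fads1 with array weights (adjusted p from 0.0224 to 0.0493). Leaving out 1 array in turn gave 0 to 1 of the 39, 0 to 2 of the 79 other lipid genes and 643 to 1798 of all genes. Intensity trend, the replicate block, the muscle covariate and unmoderated variances gave 0 of the 39, with 10, 9, 8 and 7 at an unadjusted p under 0.05. At that level were 24.6%, 23.2%, 14.2% and 24.0% of all genes, in the same order. Of the 79, 1 was called with quantile normalization, with Eif2s3y and with unmoderated variances (976 of all genes), and 0 with the muscle covariate (2 of all genes). Replicate numbers gave no sign of pairing the samples: correlations of same-numbered arrays, as deviations from group means, ran from -0.0994 to 0.105. Such correlations cannot exclude shared handling. With the replicate block 532 genes were called, and 0 of the 79. The 39 intervals within 1.5-fold became 36 with Eif2s3y, 32 with the muscle covariate and 38 with centring, unmoderated variances or without mutant replicate 4 or 5 or control replicate 2 or 5.

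Small log2 fold changes turned sign. With the mean of all probe sets, Elovl5 was at -0.01, Pnpla2 at 0.02, Acadl at -0.07, Hadhb at 0.093 and Tgfbr2 at -0.013. With quantile normalization Gpam was at 0.024 and Agpat2 at 0.01, and with centring Gpam was at 0.04, Agpat2 at 0.04 and Pnpla2 at 0.02. With array weights, Scd2 was at -0.019, Agpat2 at 0.013 and Pnpla2 at 0.0202. With the muscle covariate, Ppara was at -0.096, Cebpa at -0.015, Acsl4 at 0.051, Gpam at 0.013, Dgat2 at -0.017 and Cpt2 at -0.045. Leaving out 1 array gave -0.02 to 0.055 for Scd2, -0.22 to 0.005 for Acsl4, -0.085 to 0.015 for Agpat2, -0.155 to 0.02 for Lpin1, -0.115 to 0.01 for Pnpla2 and -0.005 to 0.07 for Cpt1a. The causes were not tested.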
